A study of Drosophila melanogaster with 80 samples.

Results

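The 31 genes described here encode serine proteases of the Jonah and trypsin families of Drosophila melanogaster. They were taken by gene symbol, without use of any measured value in the rule, out of 17697 gene identifiers in the count table: 16 Jonah genes with the neighbouring Jonah-type gene yip7 (17 in all), 11 trypsin genes named from alphaTry to lambdaTry, and the 3 further serine protease genes Ser6, Ser8 and Ser12. All 31 identifiers were found. The trypsin genes lie side by side within 20.7 kb of chromosome 2R (11336840 to 11357537, BDGP6.54 annotation, 1-based). Jonah genes lie in small groups: Jon25Bi, Jon25Bii and Jon25Biii within 5.2 kb of 2L (4949941 to 4955144), the 4 Jon65A genes and yip7 within 19.2 kb of 3L (6035216 to 6054443), Jon66Ci and Jon66Cii within 2.1 kb of 3L (8391540 to 8393649), the 3 Jon99C genes within 4.0 kb of 3R (29922216 to 29926189) and the 2 Jon99F genes within 2.9 kb of 3R (30487016 to 30489895). Jon44E and Jon74E stand alone on 2R and 3L. The annotation gives 20 of the 31 genes a single exon.

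Digestive serine proteases are made by the absorptive cells of the midgut, the enterocytes, as inactive precursors that are secreted and cut open in the gut lumen. Trypsins cleave dietary proteins after the basic residues lysine and arginine, and chymotrypsin-like enzymes, to which the Jonah proteins are related, cleave after large hydrophobic residues. Feeding larvae and adults both carry these enzymes, and the genes are known for arising by local duplication, so that neighbours can be near copies of each other. Reads of such copies may have been split between them. Jon44E, deltaTry and Ser8 each overlap a gene on the opposite strand (CG8586, CG13202 and ATP8A), and the labels do not say whether counting used the strand, so reads of these pairs cannot be told apart.

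RNA was measured by sequencing in whole larvae, whole adult females and whole adult males held either at a steady 19 °C or in a temperature cycle of 19 ± 8 °C, which runs between 27 °C (the high point) and 11 °C (the low point). Controls were collected at matching times. Treatment lasted 7 days in larvae, with sampling after 6 cycles, and 13 days in adults, with sampling after 6 and after 12 cycles. The groups are therefore stage or sex by regime by point, and in adults by number of cycles: 20 groups of 4 libraries, 16 larval, 32 female and 32 male. The labels do not give strain, genotype or adult age at the start. Levels are counts per 1000000 of a library's total (CPM), while fold changes come from a count model with scaled library sizes (edgeR's quasi-likelihood test, Benjamini-Hochberg adjusted p at most 0.05 over all genes tested). A gene is "called" where it passes that threshold, and the error of a log2 fold change is its standard error (SE). In whole animals, fewer cells of a type and less RNA per cell cannot be told apart.

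Library totals, in units of 1000000 counts, ran from 94 to 126.2 in larvae, 92.9 to 130.7 in females and 87.1 to 122.6 in males, and 1 sequenced fragment appears to be worth about 4 counts. Genes of the end of larval life, such as glue protein genes, summed to 17400 CPM or more in each larval library and to 382 CPM at most in the adult ones. All 31 genes passed the filter on low counts in females and in the fit of all libraries. In larvae and in males 30 passed, and Ser12 did not.

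Larvae expressed far more of the Jonah genes than adults did. The 17 Jonah genes summed to 23999 ± 6105 CPM in larvae (mean ± SD, n = 16, 15810 to 34243), which is 2.4% of all counts, to 4521 ± 1421 CPM in females (n = 32, 2454 to 7341) and to 5964 ± 2271 CPM in males (n = 32, 2925 to 11891). The lowest larval library lay above the highest adult one. Trypsin genes showed no such gap: their sum was 3794 ± 942 CPM in larvae, 2857 ± 521 in females and 4777 ± 1210 in males, with overlapping ranges. The ratio of the Jonah to the trypsin sum was 5.53 to 7.16 in the larval libraries, 1.08 to 2.1 in the female and 0.873 to 1.71 in the male ones. The Ser genes were minor in all stages, with sums of 12.0 ± 8.34, 49.7 ± 9.18 and 86.5 ± 22.1 CPM.

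**Figure D1:**
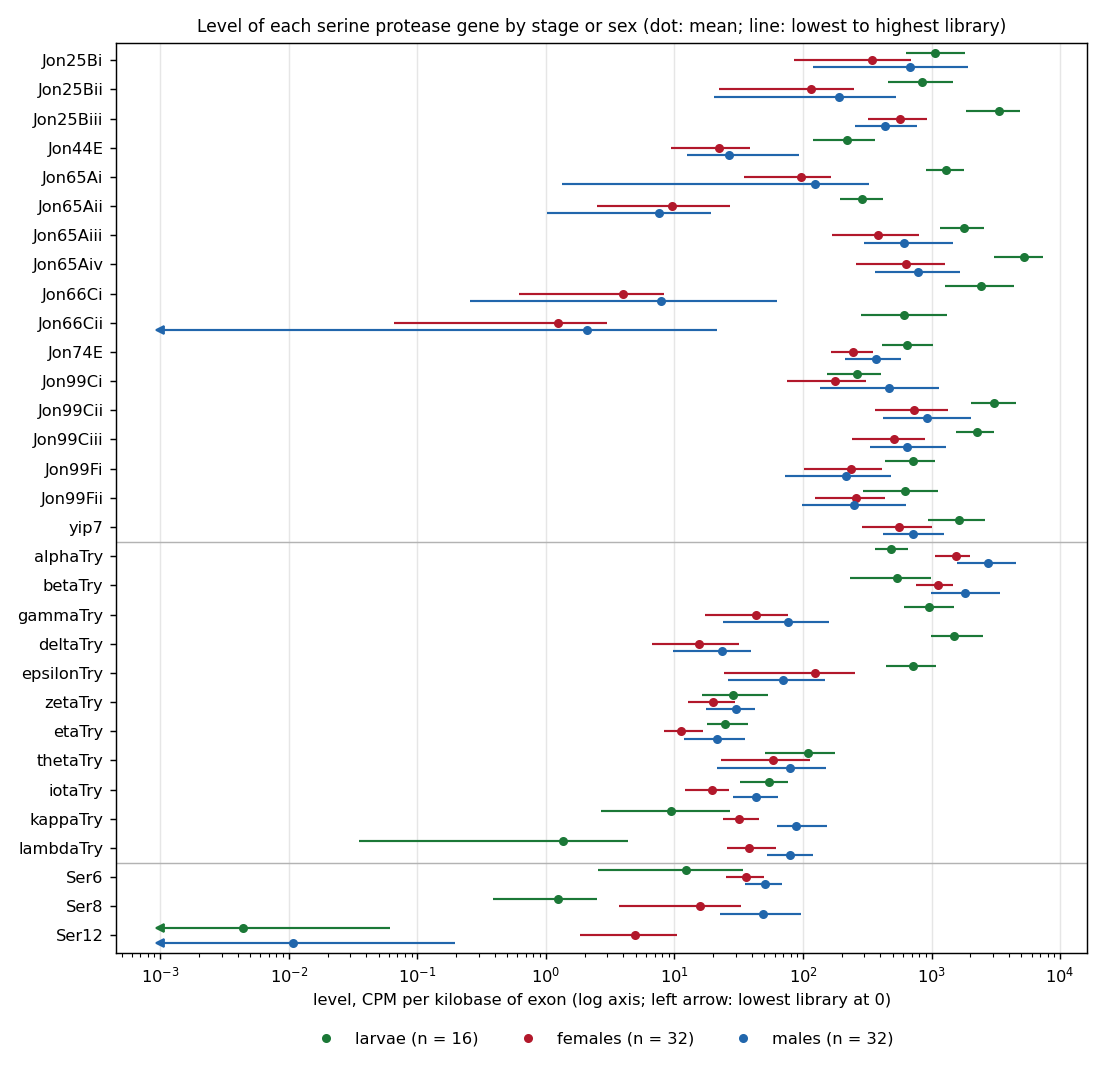
Level of each of the 31 genes in CPM per kilobase of exon (log axis) in larvae (n = 16), females (n = 32) and males (n = 32); dots are means, lines run from the lowest to the highest library, and an arrow marks a lowest library at 0. Jon66Ci, Jon66Cii, gammaTry and deltaTry lie far to the right in larvae, lambdaTry and Ser8 far to the left.

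Per kilobase of exon, different genes led in larvae and adults. Jon65Aiv was first in larvae with 5238 ± 1447 CPM per kb, followed by Jon25Biii (3316 ± 836) and Jon99Cii (3053 ± 674). In adults the trypsin genes alphaTry and betaTry came first, at 1560 ± 281 and 1115 ± 226 CPM per kb in females and 2753 ± 697 and 1818 ± 539 in males. Jon99Cii came next in both sexes (733 ± 261 and 913 ± 386), followed by Jon65Aiv (634 ± 288 and 789 ± 360). Neighbours in these orders had overlapping ranges over the libraries. Jon66Ci ranked 4 in larvae (2443 ± 932) and ranked 30 of 31 in females. deltaTry ranked 8 in larvae and 26 in both sexes. In larvae 9 members had a mean of 1000 CPM or more, against 2 in each sex.

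Larvae were compared with adults of 6 cycles, since larvae were sampled after 6 cycles (n = 16 against 16). Against females 24 of the 31 genes were higher in larvae and 7 lower, and against males 24 were higher and 6 lower. The 7 include Ser12, which failed the filter in larvae, so its place among them was fixed by its level in females. The background was high, with 88.4% and 90.9% of all 16306 genes called in the same contrasts (47.3% higher and 41.1% lower against females, 44.6% and 46.3% against males), so the count by itself sets these genes apart little. Every one of the 17 Jonah genes was called higher in larvae against both sexes, with a median log2 fold change of 2.47 against females and 2.80 against males, where the medians over all genes were 0.21 and -0.06. With DESeq2 size factors those 2 medians of all genes became 0.42 and -0.30, and with library totals 0.02 and -0.61, and the Jonah gene Jon99Ci (0.38 against males) was not called under either and turned to -0.18 with library totals. The 11 trypsin genes split, with 7 higher and 4 lower in larvae against each sex. The called trypsin gene zetaTry (0.37 against males) likewise turned to -0.19 with library totals, and its larval median of 22.4 CPM was below the male one of 28.5.

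The neighbours Jon66Ci and Jon66Cii, a pair read from opposite strands, differed most. Jon66Ci ran from 1056 to 3693 CPM in larvae (median 1901), from 0.513 to 5.5 in females (median 2.44) and from 0.214 to 4.64 in males (median 0.633). The ranges stood far apart, with log2 fold changes of 9.77 (SE 0.502, adjusted p = 8.49e-28) against females and 11.31 (SE 0.534, adjusted p = 1.2e-29) against males by edgeR's quasi-likelihood test. Jon66Cii ran from 233 to 1091 CPM in larvae (median 442), from 0.055 to 2.42 in females (median 0.493) and from 0 to 1.67 in males (median 0.185), again with no overlap (9.71, SE 0.465, and 11.19, SE 0.499). Jon65Aii, from the Jon65A group, followed at 161 to 351 CPM in larvae, 2.34 to 22.6 in females and 0.852 to 15.8 in males, also without overlap (4.83 and 6.08). Its neighbour Jon65Ai was higher in larvae by 3.86 and 4.61.

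Larvae and adults differed in the proportions of their trypsin genes. deltaTry ran from 803 to 2041 CPM in larvae (median 1033), from 5.45 to 17.3 in females (median 10.9) and from 7.82 to 31.8 in males (median 17.3). Larval libraries were all above the adult ones (log2 fold change 6.98 against females, SE 0.169, adjusted p = 7.99e-46, and 6.68 against males, SE 0.166). gammaTry was higher in larvae by 4.65 and 4.5 and epsilonTry by 2.86 and 3.76. alphaTry went the other way, with 312 to 564 CPM in larvae (median 393), 911 to 1665 in females (median 1257) and 1356 to 2574 in males (median 1984). No larval library reached an adult one (-1.42, SE 0.072, and -1.66, SE 0.0725). betaTry was lower in larvae by 0.94 and 0.98 log2 units, with overlapping ranges. Across libraries the ratio of gammaTry plus deltaTry to alphaTry plus betaTry was 1.23 to 2.97 in larvae, 0.00953 to 0.0273 in females and 0.0101 to 0.032 in males.

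At the edge of the trypsin cluster, lambdaTry was nearly silent in larvae, at 0.0337 to 4.14 CPM (median 0.861), and ran from 25.7 to 58.2 CPM in females and 49.9 to 89.2 in males, with no overlap (-5.31, SE 0.252, and -5.77, SE 0.256). Its neighbour kappaTry ran from 2.53 to 25.2 CPM in larvae (median 6.66), 22.5 to 42.5 in females (median 31) and 58.8 to 84.5 in males (median 68.7). The larval range overlapped that of females and not that of males (-1.82, SE 0.123, and -2.66, SE 0.127).

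Ser6 and Ser8 were lower in larvae than in females, and Ser12 was nearly absent from larvae. Ser8 ran from 0.327 to 2.09 CPM in larvae, 7.27 to 22.9 in females and 19.0 to 56.0 in males (-3.47, SE 0.193, and -4.42, SE 0.2). Ser6, on the X chromosome, ran from 2.27 to 31 CPM in larvae (median 7.8), 22.7 to 37.7 in females (median 29.2) and 31.7 to 52.1 in males (median 45.1), so that larvae overlapped females only (-1.42, SE 0.159, and -1.61, SE 0.16). Ser12 was found in females. It ran from 1.55 to 8.79 CPM over all 32 female libraries (mean 4.16 ± 1.8), while 28 of 32 male and 14 of 16 larval libraries were at 0 and the highest of the others was at 0.167 CPM. No fold change is given for Ser12 because so few of the male and larval libraries hold a count. Of 5 other listed serine protease genes of the reproductive tract, 4 were called higher in males and 1 lower.

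Males were compared with females over all adult libraries (n = 32 against 32). Of the 31 genes 14 were higher in males and 6 lower, where 94.5% of all genes were called, 56.6% higher and 37.8% lower. The 6 include Ser12, which failed the filter in males, so its place among them was fixed by its level in females. The split of the 31 genes depends on the scaling: with DESeq2 size factors 23 were higher and 3 lower, and with library totals 22 and 3. Of all 16306 genes, 10120 were higher and 5340 lower with DESeq2 size factors, and 9959 and 5497 with library totals. The median over all genes was 0.77 in the reported fit, 1.19 with DESeq2 size factors and 1.12 with library totals, so values near 0 lie below the genome-wide shift. The median over the members was 0.14. Among trypsin genes 9 of 11 were higher in males. kappaTry ran from 58.8 to 145 CPM in males (median 81.9) and from 22.5 to 42.5 in females (median 29.5), and iotaTry from 23.3 to 51.8 (median 34.8) and 9.9 to 21.6 (median 15.7). For these 2 genes the sexes did not overlap (1.11, SE 0.085, and 0.77, SE 0.0598). Ser8 (1.28, SE 0.122), Jon99Ci (0.97, SE 0.0972) and lambdaTry (0.71, SE 0.142) were next, each with overlapping ranges.

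Beside Ser12, the genes lower in males were epsilonTry (-1.15, SE 0.129), Jon25Biii (-0.74, SE 0.088), Jon65Aii (-0.53), Jon99Fi (-0.52) and Jon99Fii (-0.44), all with overlapping ranges. epsilonTry ran from 21.5 to 124 CPM in males (median 46.6) and from 20.3 to 212 in females (median 91.6). Jon25Biii ran from 211 to 638 CPM in males (median 337) and from 264 to 757 in females (median 463). The calls of Jon65Aii and both Jon99F genes were lost with DESeq2 size factors and with library totals.

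Within larvae, the comparison of fluctuating with constant animals at the high point asked what the protease genes did at the warm end of the cycle (n = 4 against 4). Of 30 genes tested 0 were higher and 2 lower, 6.67% of them, against 4.37% of all 14634 genes (2.1% higher, 2.26% lower). betaTry stood at 904, 911, 779 and 1064 CPM in constant larvae and at 573, 421, 247 and 311 CPM in fluctuating larvae. All 4 fluctuating libraries lay below the constant ones (-1.30, SE 0.32, adjusted p = 0.0366 by edgeR's quasi-likelihood test). kappaTry stood at 16.6, 19.1, 9.32 and 25.2 CPM in constant and at 11.4, 4.09, 2.53 and 3.5 CPM in fluctuating larvae, where replicate 1 was high and overlapped the constant group (-1.77, SE 0.478, adjusted p = 0.0498). Members as a whole had a median log2 fold change of -0.29, with 28 of 30 below 0, where the median of all genes was 0.03.

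These 2 larval calls depend on single libraries. The call of betaTry was lost without 9 of the 16 larval libraries, each left out alone, and that of kappaTry without 13. Without replicate 1 of the fluctuating high group 6 members were lower, among them betaTry (-1.58) and kappaTry (-2.48). The count was 0 without replicate 1, 2 or 4 of the constant high group, replicate 1, 2 or 3 of the constant low group or replicate 2, 3 or 4 of the fluctuating high group. It was 1 without replicate 4 of the constant low group or replicate 2, 3 or 4 of the fluctuating low group. The fit of only the compared libraries called 0.

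At the low point 0 of the 30 genes were called in larvae, where 1.11% of all genes were, 0.437% higher and 0.67% lower (edgeR's quasi-likelihood test; 4 members had an unadjusted p under 0.05, and DESeq2 called 1). lambdaTry had the largest difference. It stood at 0.165, 0.276, 0.1 and 0.0337 CPM in constant and at 1.88, 2.35, 2.29 and 0.518 CPM in fluctuating larvae. The groups did not overlap, but the difference did not pass (3.5, SE 1.13, adjusted p = 0.178). At the high point the same gene stood at 1.2, 2.72, 2.01 and 4.14 CPM in constant larvae and at 2.67, 0.0792, 0.0634 and 0.103 in fluctuating ones, where 3 of 4 fluctuating libraries were below the constant range and replicate 1 was within it.

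**Figure D2:**
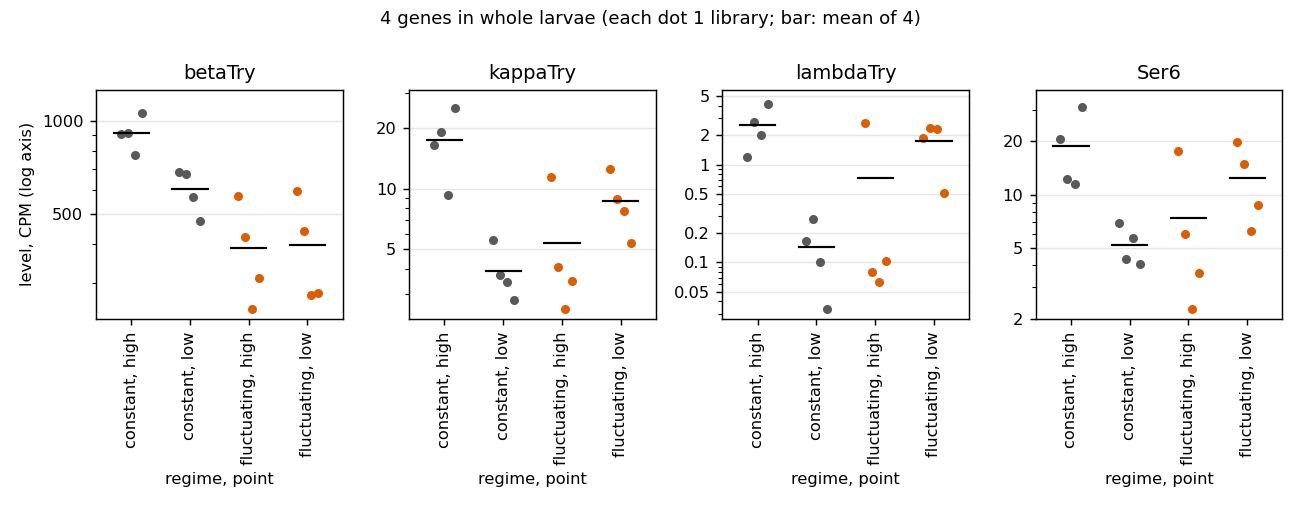
Levels of betaTry, kappaTry, lambdaTry and Ser6 in CPM (log axis) in the 4 larval groups; each dot is 1 library and each bar the mean of 4. Constant larvae at the high point lie above constant larvae at the low point for each gene shown, and replicate 1 of the fluctuating high group lies apart from its group for lambdaTry (2.67 CPM).

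In larvae at constant temperature the members leaned in one direction between the sampling points, without any passing the test. All 30 genes tested had a positive log2 fold change for the high over the low point, with a median of 0.66, where all genes had a median of -0.03. Members deviated together within larval groups (median correlation of 0.73 between 2 Jonah genes), so the 30 signs are not independent. The share of all genes with a positive sign is not given. No member was called by edgeR's quasi-likelihood test, against 0.417% of all genes (0.349% higher, 0.0683% lower). An unadjusted p under 0.05 was found for 21 members, without the share of all genes at that threshold to set beside it. DESeq2 called 13 and the fit of the compared libraries alone 10, where they called 10.5% and 5.39% of all genes. The count was 8 without replicate 3 of the constant high group, 9 without replicate 1 of the fluctuating low group, and 5, 4 and 1 without replicates 1, 3 and 4 of the fluctuating high group. The share of all genes called in these runs is not given. kappaTry stood at 16.6, 19.1, 9.32 and 25.2 CPM at the high and at 5.55, 3.74, 3.46 and 2.8 CPM at the low point, with no overlap (2.26, SE 0.487, adjusted p = 0.0579). Ser6 stood at 20.6, 12.3, 11.4 and 31 CPM at the high and at 6.87, 4.32, 5.66 and 4.05 CPM at the low point, and Jon66Ci at 3186, 2688, 1975 and 3693 against 1827, 1301, 1548 and 1402 CPM. Every library of the high point was above those of the low point for both genes.

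The Jonah sums of the constant larvae were 33058, 28689, 24010 and 34243 CPM at the high and 23128, 18358, 21137 and 16692 CPM at the low point. In fluctuating larvae they were 33164, 26620, 21264 and 23340 at the high and 28378, 18029, 18067 and 15810 at the low point, with replicate 1 the highest of each fluctuating group. The sum of those genes of the end of larval life ran the other way at constant temperature, with 17400 to 25130 CPM at the high and 27547 to 32113 CPM at the low point. Within it the glue gene Sgs1 was higher at the high point, at 559, 516, 466 and 556 CPM against 300, 333, 252 and 394. Sgs3, Sgs4 and Sgs7 overlapped between the points, and Sgs5 and Sgs8 were lower at the high point without overlap. Larval cuticle genes summed to 18583 to 31515 and 15991 to 19314 CPM. Other gut serine protease genes summed to 4360 to 7357 CPM at the high and 3084 to 4058 at the low point, amylases and maltases to 2075 to 2545 and 1700 to 1983, and feeding and starvation genes to 391 to 809 and 845 to 952, each without overlap. Gut regulators (528 to 655 and 604 to 623 CPM) and peritrophic matrix genes (648 to 1104 and 578 to 692) overlapped. In fluctuating larvae the sums of these late larval genes were 23039 to 33444 CPM at the high and 24232 to 31167 at the low point. The part of these lists in the protease values was not tested.

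The treatment effect at the high point differed from that at the low point for 1 larval gene, kappaTry (-2.83, SE 0.67, adjusted p = 0.0484, edgeR's quasi-likelihood test), where 1.69% of all genes were called (0.895% higher, 0.793% lower). In fluctuating larvae kappaTry stood at 11.4, 4.09, 2.53 and 3.5 CPM at the high and at 12.6, 8.87, 7.77 and 5.4 CPM at the low point. Constant larvae were thus higher at the high point in each library, and fluctuating larvae overlapped between the points. The call was lost without any of 13 of the 16 libraries, and held without replicate 3 of the constant high, replicate 4 of the fluctuating low or replicate 1 of the fluctuating high group, where 3 members were called.

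In females at the high point, fluctuation went with higher levels of many members. Of 31 genes 16 rose and 1 fell (n = 8 against 8, groups of 6 and 12 cycles together), which is 54.8%, against 30.6% of 13471 genes called, 15.4% higher and 15.3% lower. The median log2 fold change was 0.51, against -0.00 over all genes, and 25 of 31 values were positive. Of the 17 Jonah genes 10 rose and 0 fell, of the 11 trypsin genes 5 rose and 1 fell, and of the Ser genes Ser8 rose.

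**Figure D3:**
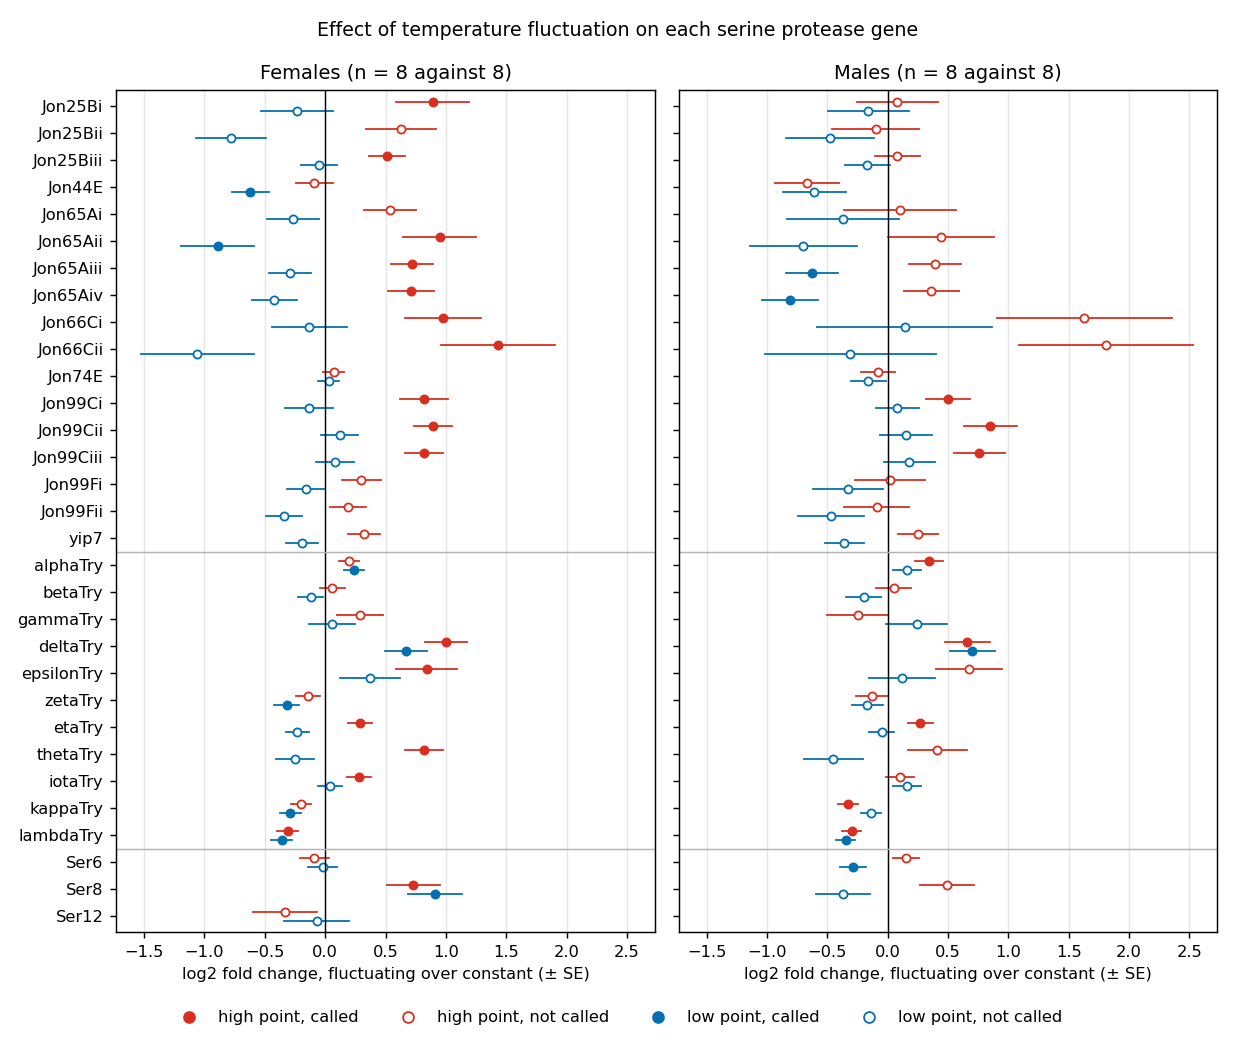
Log2 fold change of fluctuating over constant animals (± SE) for each gene in females and in males, n = 8 against 8, at the high point (red) and the low point (blue); filled dots passed an adjusted p of 0.05. In females at the high point 16 genes lie to the right of 0 as filled dots, and lambdaTry is a filled dot left of 0 in each sex at each point.

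Jon99Cii, the abundant Jonah gene of chromosome 3R, ran from 713 to 1148 CPM in fluctuating (median 978) and from 381 to 644 CPM in constant females (median 468). The groups did not overlap (0.89, SE 0.157, adjusted p = 9.5e-05). thetaTry ran from 84.3 to 119 CPM (median 91.5) against 34.5 to 83.9 (median 57.0), also without overlap (0.82, SE 0.16, adjusted p = 3.11e-04). Both genes were called at 6 cycles alone and at 12 cycles alone. deltaTry, low in adults, ran from 12.0 to 25.6 CPM (median 17.8) against 6.67 to 12.3 (median 8.63), so that the groups touched at their ends (1.0, SE 0.174, adjusted p = 8.12e-05).

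The gene pair that is low in adults rose as well. Jon66Cii ran from 0.302 to 2.46 CPM in fluctuating (median 1.34) and from 0.114 to 1.24 in constant females (median 0.454), and Jon66Ci from 2.53 to 5.69 (median 4.4) and 1.42 to 3.59 (median 2.32). Both pairs of ranges overlapped (1.43, SE 0.472, adjusted p = 0.0226, and 0.98, SE 0.315, adjusted p = 0.0187). Jon65Aii ran from 5.07 to 22.6 CPM (median 14.3) against 2.54 to 15.8 (median 7.72), with overlap (0.95, SE 0.301, adjusted p = 0.0178). The others that rose were Jon25Bi (0.89), epsilonTry (0.84), Jon99Ci and Jon99Ciii (0.82 each), Ser8 (0.73), Jon65Aiii (0.72), Jon65Aiv (0.71), Jon25Biii (0.51), etaTry (0.29) and iotaTry (0.28). lambdaTry fell, with 24.6 to 32.6 CPM in fluctuating (median 28.6) and 24.2 to 44.7 in constant females (median 37.6), and overlap between the groups (-0.31, SE 0.087, adjusted p = 0.00743).

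The counts were also taken for each cycle number. At 6 cycles alone 3 members were called higher and 2 lower, where 30.5% of all genes were called, and at 12 cycles alone 11 higher and 0 lower, where 12% were. At 12 cycles all 4 fluctuating libraries stood above all 4 constant ones for 13 members and below them for 1, Ser12, where 7.02% and 7.4% of all genes separated in this way. At 6 cycles they stood above for 4 and below for 3, where 18.5% and 13.6% of all genes did. The Jonah sum was 4143, 4470, 5902 and 4108 CPM in constant females at the high point after 6 cycles and 5716, 5579, 7341 and 4989 in fluctuating ones, which overlapped. After 12 cycles it was 3798, 3507, 4644 and 3087 CPM in constant and 6813, 6714, 7122 and 7218 in fluctuating females, with a wide gap.

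**Figure D4:**
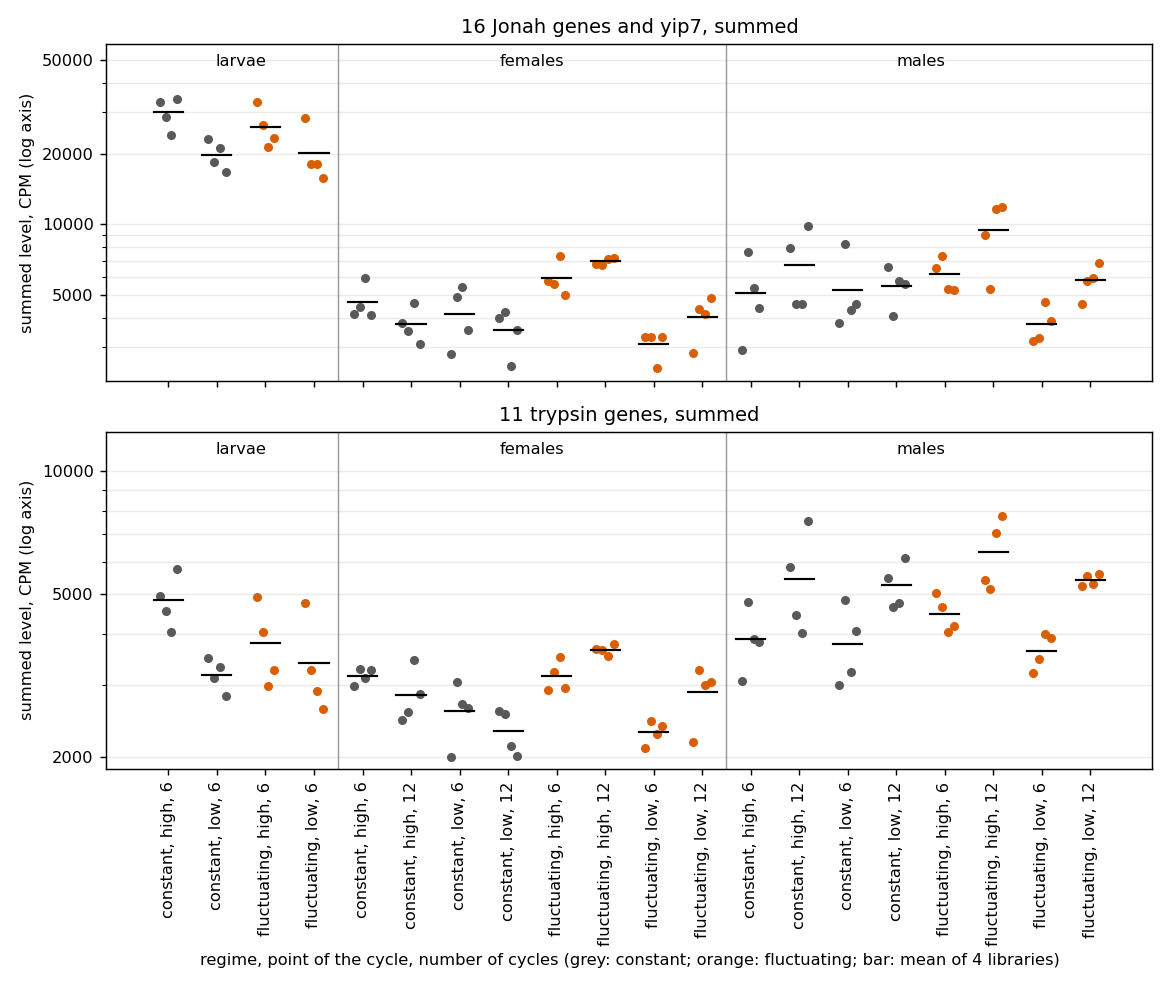
Summed level in CPM (log axis) of the 17 Jonah genes (upper) and the 11 trypsin genes (lower) in each of the 20 groups; each dot is 1 library, grey for constant and orange for fluctuating temperature, and bars are means of 4. Larval Jonah sums lie between 15810 and 34243 CPM, above all adult ones, and female sums after 12 cycles at the high point are higher under fluctuation.

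Treatment effects at 12 and at 6 cycles were compared over the high and low points together. The low point enters this contrast as well. There 1 member was higher and 8 lower at 6 cycles alone, where 26.4% of all genes were called. At 12 cycles alone 3 were higher and 0 lower, where 13.4% of all genes were called. The change at the high point by itself was not tested. Of the 31 genes 14 had a higher effect at 12 cycles and 0 a lower one, 45.2% of them, where 31.1% of all genes were called, 15.3% higher and 15.8% lower. The median was 0.60, with 30 of 31 values positive, against 0.02 over all genes. Largest were deltaTry (0.90, SE 0.245, adjusted p = 0.00607, edgeR's quasi-likelihood test), Jon99Ciii (0.82, SE 0.221), Jon25Biii and gammaTry (0.72 each) and Jon44E (0.68, SE 0.217). Among trypsin genes 8 of 11 were called. In the case of lambdaTry (0.45) the constant females after 6 cycles were high: at the high point they stood at 38.4, 38.0, 44.5 and 44.7 CPM against 32.6, 26.0, 30.5 and 25.7 under fluctuation, while after 12 cycles the values were 24.2, 29.6, 28.5 and 37.2 against 28.1, 31.1, 29.1 and 24.6. The first pair of groups did not overlap and the second did.

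In females at the low point the members split. Of 31 genes 3 rose and 5 fell, 25.8%, close to the 22.9% of all genes called (11.4% in each direction), with a median of -0.16. Ser8 ran from 11.1 to 27.7 CPM in fluctuating (median 19.3) and from 7.58 to 13.2 in constant females (median 9.31), with some overlap (0.91, SE 0.222, adjusted p = 0.00333). deltaTry ran from 8.23 to 24.9 CPM (median 11.9) against 5.45 to 15.1 (median 7.62), again with overlap (0.67, SE 0.173, adjusted p = 0.00563). alphaTry, the most abundant adult gene of the family, ran from 1018 to 1725 (median 1214) against 911 to 1202 CPM (median 1126), which is a difference of 0.24 (SE 0.0817) that was lost without 10 of the 32 libraries.

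Those that fell at the female low point were Jon65Aii, Jon44E, lambdaTry, zetaTry and kappaTry. Jon65Aii ran from 2.09 to 5.73 CPM (median 2.92) in fluctuating and 2.45 to 16.6 (median 5.09) in constant females (-0.89, SE 0.304, adjusted p = 0.0347). Jon44E ran from 13.1 to 32.2 CPM (median 21.3) against 17.4 to 53.7 (median 31.3), and lambdaTry from 30 to 38.5 (median 35.3) against 35.7 to 58.2 (median 43.4). Both overlapped (-0.62, SE 0.154, adjusted p = 0.00381, and -0.36, SE 0.0869, adjusted p = 0.00321). zetaTry (-0.32, SE 0.1) ran from 14.6 to 17.2 CPM against 13 to 28, and kappaTry (-0.29, SE 0.0861) from 22.5 to 35.4 against 25.2 to 38.6. None of these 5 falls was called at 12 cycles alone, where kappaTry was at 0.02, while all were called at 6 cycles alone.

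The treatment effect was higher at the female high point than at the low point for 10 of 31 genes and lower for 0, 32.3%, where 20% of all genes were called, 9.78% higher and 10.2% lower. The median was 0.51, with 27 of 31 values positive, against -0.00 over all genes. These were 8 Jonah genes, led by Jon66Cii (2.49, SE 0.666, adjusted p = 0.00839), Jon65Aii (1.83, SE 0.428, adjusted p = 0.00282), Jon25Bii (1.41, SE 0.414) and Jon65Aiv (1.13, SE 0.268), and the trypsin genes thetaTry (1.07, SE 0.226, adjusted p = 0.00116) and etaTry (0.51). Jon65Aiii, Jon99Ci, Jon99Cii and Jon99Ciii differed by 1.01, 0.95, 0.77 and 0.75. The count was 16 by DESeq2, which called 22.5% of all genes, and 16 without replicate 1 of the constant low group at 6 cycles. It was 4 at 6 cycles alone and 1 at 12 cycles alone, where 6.47% and 9.97% of all genes were called.

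At constant temperature, females at the high point had 4 members higher and 2 lower than at the low point, 19.4% against 21.1% of all genes (10.9% higher, 10.3% lower). yip7 ran from 361 to 779 CPM at the high (median 572) and from 262 to 585 at the low point (median 361), with overlap (0.56, SE 0.131, adjusted p = 0.00312). alphaTry (0.35), Jon74E (0.30) and betaTry (0.30) were also higher. Jon66Cii (-1.36, SE 0.472), at 0.114 to 1.24 against 0.334 to 2.42 CPM, and lambdaTry (-0.32, SE 0.0869) were lower, both with overlap.

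Between 6 and 12 cycles, over both regimes (n = 16 against 16), 4 members rose in females and 6 fell, 32.3% against 38.7% of all genes (20.6% higher, 18% lower). Cycle number cannot be told apart from adult age or replicate set in females. Jon66Cii ran from 0.114 to 2.46 CPM (median 1.3) after 12 and 0.055 to 2.42 (median 0.493) after 6 cycles (0.92, SE 0.331, adjusted p = 0.0291). Jon99Ci rose from a median of 115 to 198 CPM (0.58, SE 0.141), Jon66Ci by 0.56, a call lost without 19 of 32 libraries, and etaTry by 0.20. Jon65Aii fell from 2.34 to 22.6 CPM (median 9.59) to 2.09 to 19.2 CPM (median 3.77), with broad overlap (-0.99, SE 0.214, adjusted p = 5.64e-04). Jon44E fell by 0.51, the near copies Jon99Fii and Jon99Fi by 0.50 and 0.40, zetaTry by 0.36 and iotaTry by 0.34. In each of these the ranges overlapped.

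In males at the high point the count of members was no higher than the background. Of 30 genes tested 6 rose and 2 fell, 26.7%, against 31.9% of 15847 genes (15.9% in each direction), with a median of 0.20. Jon99Cii ran from 777 to 1742 CPM in fluctuating (median 1052) and from 362 to 971 in constant males (median 549), with overlap (0.85, SE 0.22, adjusted p = 0.00375). Jon99Ciii (0.76, SE 0.211) and Jon99Ci (0.50, SE 0.179) rose with it. deltaTry ran from 16.8 to 31.8 CPM (median 26.1) against 11.2 to 25 (median 15), also overlapping (0.66, SE 0.186, adjusted p = 0.00699). alphaTry rose by 0.34 and etaTry by 0.27, the second lost without 19 of 32 libraries. kappaTry fell from 66.2 to 145 CPM (median 82.3) to 58.8 to 86.3 (median 75.1), and lambdaTry from 61.3 to 102 (median 71.9) to 49.9 to 73.5 (median 64.5), with overlap in both (-0.33, SE 0.0843, and -0.30, SE 0.0765). At 6 cycles alone 0 members were called, where 17.4% of all genes were, and at 12 cycles alone 4 higher and 2 lower, where 17.5% were. Without replicate 7 of the constant high group the count was 5.

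At the low point 1 member rose and 4 fell in males, 16.7% of 30 against 30.5% of all genes (12.7% higher, 17.8% lower). deltaTry ran from 16.2 to 29.4 CPM in fluctuating (median 21.3) and from 7.82 to 20.3 in constant males (median 12.6), with overlap (0.70, SE 0.187, adjusted p = 0.00544). Jon65Aiv fell from 493 to 1476 CPM (median 656) to 329 to 555 (median 401), again with overlap (-0.81, SE 0.228, adjusted p = 0.00875), and its neighbour Jon65Aiii by 0.63 (SE 0.217). lambdaTry ran from 60.9 to 88.1 CPM (median 72.1) against 76.1 to 114 (median 88.1) (-0.35, SE 0.0765, adjusted p = 0.00108). Ser6 fell by 0.29, a call lost without 23 of 32 libraries. The count was 3 without replicate 2, 5, 7 or 8 of the constant low males or replicate 2 or 6 of the fluctuating low males, each left out alone.

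Jon65Aiv and Jon65Aiii also had a higher treatment effect at the male high point than at the low point (1.17, SE 0.322, adjusted p = 0.00833, and 1.02, SE 0.307, adjusted p = 0.0154). Ser8 (0.86) and Ser6 (0.44) made up the 4 of 30 members called, 13.3% against 23% of all genes (14% higher, 9.06% lower), and these 2 calls were lost without 28 and 20 of the 32 libraries. The count was 8 without replicate 8 of the constant high group. It was 2 without replicate 4, 5, 6 or 7 of the constant high, 2, 3, 4, 7 or 8 of the constant low, 2, 3, 7 or 8 of the fluctuating high or 1, 2, 3, 6 or 7 of the fluctuating low group, each left out alone. At constant temperature the male points differed for lambdaTry alone among the 30, lower at the high point by 0.32 (SE 0.0765, adjusted p = 0.0073), where 9.64% of all genes were called (3.95% higher, 5.69% lower).

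Male libraries of 12 cycles held more of these transcripts than those of 6, over both regimes (n = 16 against 16). This step cannot be told apart from adult age or replicate set. Of 30 members 17 rose and 0 fell, 56.7%, against 38.3% of all genes called (19.7% higher, 18.7% lower), with a median of 0.47 against 0.00. Of the 17 Jonah genes 9 rose and of the 11 trypsin genes 7. etaTry ran from 18.4 to 32.3 CPM after 12 cycles (median 24.2) and from 10.8 to 18.6 after 6 (median 14.7), so that the ranges barely overlapped (0.81, SE 0.0743, adjusted p = 1.67e-09). Jon99Ci ran from 347 to 1032 CPM (median 560) against 123 to 492 (median 254), with overlap (1.13, SE 0.128, adjusted p = 7.42e-08). Jon25Bi ran from 324 to 1657 CPM (median 699) against 103 to 863 (median 379) and Jon65Ai from 72.8 to 310 (median 160) against 1.27 to 168 (median 67.8), both overlapping (1.12, SE 0.238, and 1.18, SE 0.331). Jon25Bii, Jon99Fi and Jon99Fii rose by 1.04, 0.99 and 0.97, Ser8 by 0.67, and betaTry, gammaTry, alphaTry, kappaTry, lambdaTry and iotaTry by 0.36 to 0.61. Jon44E rose by 0.46, lost without 21 of 32 libraries.

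Jon66Ci and Jon66Cii changed most in males, by 2.83 (SE 0.535, adjusted p = 1.17e-04) and 2.79 (SE 0.522, adjusted p = 1.03e-04). Jon66Ci was at 0.214 to 4.64 CPM in the 16 libraries of 6 cycles. After 12 cycles it stood at 16.8, 1.51, 51.0 and 52.6 CPM in fluctuating males at the high point, at 12.1, 8.92, 9.64 and 12.3 CPM in those at the low point, and at 2.42, 1.03, 0.397 and 8.16 and 2.73, 0.51, 0.909 and 11 CPM in constant males at the high and low points. After 12 cycles the fluctuating males thus ran from 1.51 to 52.6 CPM and the constant males from 0.397 to 11 CPM, with overlap. The highest value remained far below the larval minimum of 1056 CPM. Larval cuticle genes, a mark of larval tissue, summed to 0.665 to 2.2 CPM in the fluctuating high males of 12 cycles, against 0.836 to 2.8 in their constant controls and 6.13 to 16.5 in constant high males of 6 cycles. The treatment effect at 12 against 6 cycles was called for 0 of 30 members in males by edgeR's quasi-likelihood test (4 had an unadjusted p under 0.05, DESeq2 called 0), where 26 of all 15847 genes were, 0.164% (0.126% higher, 0.0379% lower).

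**Figure D5:**
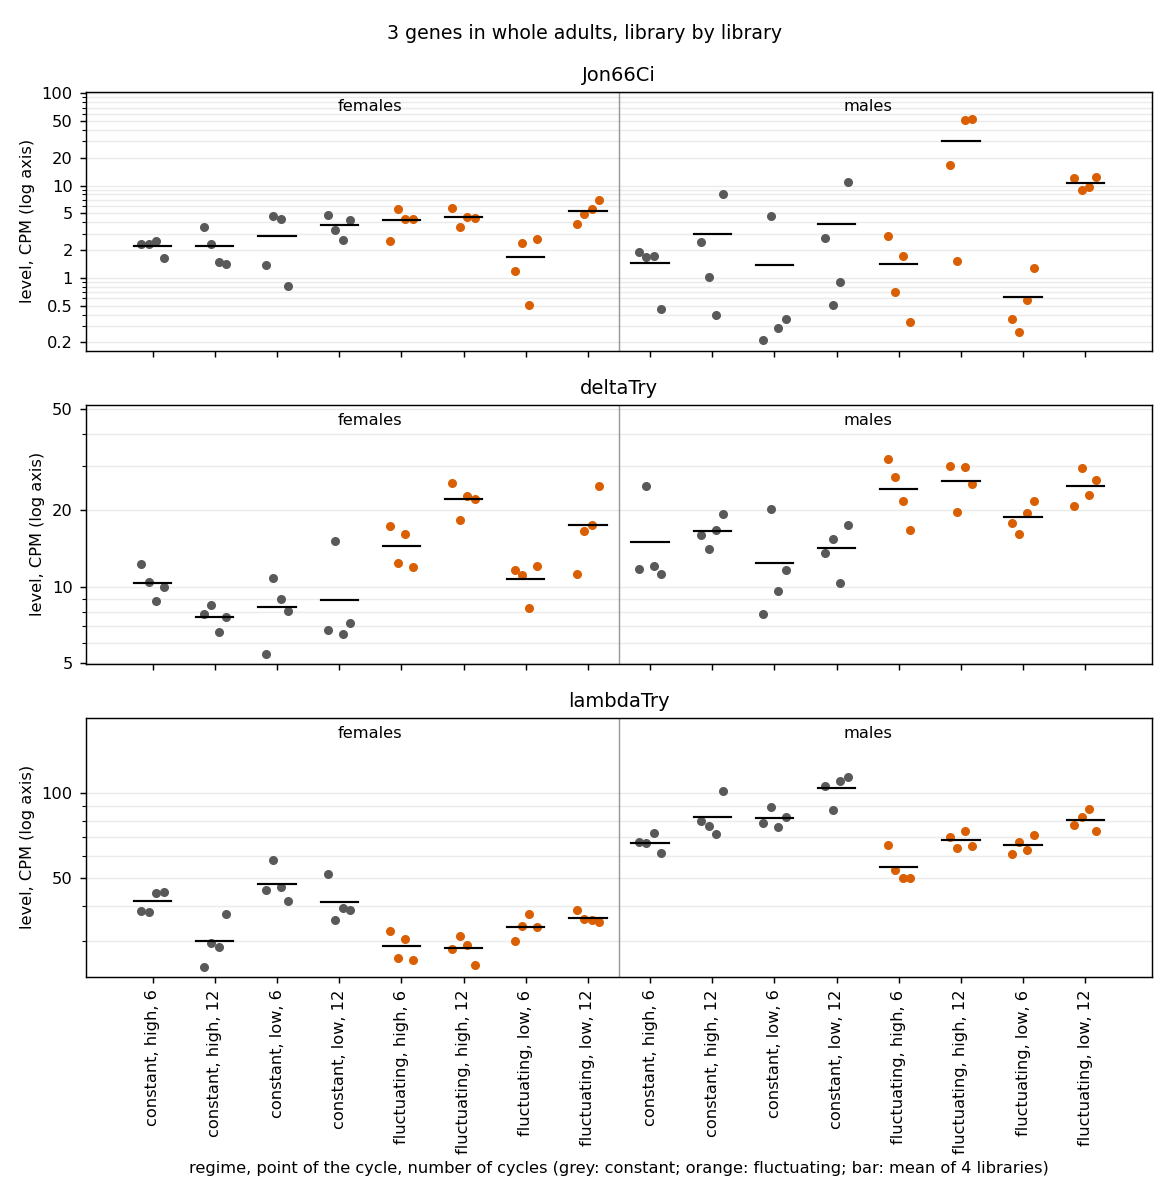
Levels of Jon66Ci, deltaTry and lambdaTry in CPM (log axis) in the 16 adult groups; each dot is 1 library, grey for constant and orange for fluctuating temperature, and bars are means of 4. Jon66Ci reaches 52.6 CPM in fluctuating males of 12 cycles, deltaTry is higher and lambdaTry lower under fluctuation in most pairs of groups.

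In both sexes and at both points, deltaTry was called higher and lambdaTry lower under fluctuation, which held for no other member. In males after 12 cycles deltaTry stood at 29.9, 19.8, 29.7 and 25.3 CPM in fluctuating and 16, 14.1, 16.7 and 19.4 in constant animals at the high point, with no overlap. The deltaTry calls depend on how near copies were counted. When its counts were summed with those of gammaTry, CG30025 and CG30031, taken as near copies after the data were seen, the difference was 0.47 in females at the high point (adjusted p = 0.0326) and was no longer called in females at the low point (0.23, adjusted p = 0.345) or in males at the high (0.03, adjusted p = 0.944) and low points (0.35, adjusted p = 0.266). For lambdaTry the female differences came from 6 cycles (-0.56 at each point at 6 cycles alone, against -0.06 and -0.16 at 12 cycles alone), while in males 6 and 12 cycles alone gave -0.30 and -0.29 for the high and -0.37 and -0.32 for the low point, of which -0.37 passed the test. When Jon99Cii and Jon99Ciii were summed, the pair rose by 0.86 in females and 0.80 in males at the high point. The ratio of the 2 ran from 0.791 to 1.12 over all 80 libraries.

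The treatment effects of the sexes were compared directly in the fit of all libraries. At the high point 0 of 31 members differed between males and females by edgeR's quasi-likelihood test (0 with an unadjusted p under 0.05, DESeq2 0), where 8.23% of all genes did (3.21% higher, 5.02% lower). At the low point only Ser8 did (-1.28, SE 0.342, adjusted p = 0.0119), where 7.5% of all genes did (0.951% higher, 6.55% lower): it was higher under fluctuation in females and, in males, ran from 21.5 to 43.4 CPM in fluctuating and from 20.2 to 77.6 CPM in constant animals. This call was lost without the libraries of replicate 8 (adjusted p = 0.0657). So the larger number of calls in females at the high point is not shown to differ from males gene by gene.

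Libraries of 1 group differed from each other along many members at once. After subtracting group means from log2 CPM, the median Pearson correlation between 2 Jonah genes was 0.73 in larvae (136 pairs, n = 16 libraries), 0.47 in females and 0.69 in males (n = 32 each). Between 2 trypsin genes it was 0.75, 0.35 and 0.57, and between a Jonah and a trypsin gene 0.73, 0.23 and 0.54. These libraries share their totals and near copies share reads, so the values are given as a description. Since members deviate together, counts of members with the same sign in a comparison are not counts of independent genes. Genes outside the families whose within-group deviations were closest to the Jonah sum were hiro and CG30025 (0.96 each), CG5084, Argl and Cyp4d2 (0.95 each) in larvae (n = 16), CG6296 and Bace (0.79 each), CG43673 and Pebp1 (0.78 each) and CG18180 (0.77) in females, and CG8773 (0.89), Ag5r2 and Acox3 (0.84 each), CG18180 (0.83) and CG33306 (0.82) in males. For the trypsin sum they were CG17633 (0.98) and AANATL6, CG30025, Phae2 and Argl (0.97 each) in larvae, Bace (0.86), CG7920 (0.77), CG7992 and mew (0.76 each) and Sugb (0.75) in females, and CG8773 (0.87), Ag5r2 (0.83), CG31463 (0.82), CG34236 and CG14820 (0.80 each) in males.

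Other digestive genes were counted beside the members. In females at the high point 30.6% of all genes were called, 15.4% higher and 15.3% lower. For the female treatment effect at 12 against 6 cycles 31.1% were, 15.3% higher and 15.8% lower. In females at the high point, of 24 other gut serine protease genes 3 rose and 4 fell (median -0.11), of 14 amylases and maltases 1 rose and 1 fell (-0.01), of 12 lipases 2 rose and 0 fell (0.18), and of 14 metallocarboxypeptidases and astacins 2 rose and 1 fell (0.13). Bace, an aspartic protease, rose from 641 ± 87.7 to 850 ± 154 CPM (n = 8 each; 0.39, SE 0.106, adjusted p = 0.00649), CG30031, a near copy of deltaTry, by 0.93 and CG18180 by 0.74, while the maltase genes Mal-B1 and Mal-B2 went apart (0.57 and -0.60). Peritrophic matrix genes, which line the gut, had 0 higher and 2 lower of 6. The 10 gut regulators and enterocyte genes had 2 higher and 2 lower, and summed to 593 to 716 CPM in all female libraries. Of the treatment effects at 12 against 6 cycles, 7 of the 24 other gut serine proteases were higher and 0 lower, and 4 of the 10 gut regulators.

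From 6 to 12 cycles 38.3% of all genes were called in males (19.7% higher, 18.7% lower) and 38.7% in females (20.6% higher, 18% lower). In males at the high point 31.9% were called, 15.9% in each direction. In males, amylases and maltases rose from 6 to 12 cycles in 13 of 14 cases with 0 lower (median 0.51), led by Mal-B1 (1.13, SE 0.123). Other gut serine proteases had 13 higher and 1 lower of 22 (median 0.33); Try29F fell by 1.2, and CG18180 (1.02) and CG8329 (0.67) rose. Lipases had 8 higher and 3 lower of 12, peritrophic matrix genes 5 and 1 of 6, enteroendocrine peptide genes 7 and 1 of 9 and gut regulators, such as the intestinal factor GATAe (0.57, SE 0.079), 6 and 0 of 10. In females the same step gave 9 higher and 1 lower of 14 amylases and maltases (median 0.43), 7 and 1 of 12 lipases, but 1 and 8 of 24 other gut serine proteases and 2 and 7 of 14 metallocarboxypeptidases and astacins. In males at the high point 0 of 10 gut regulators were higher and 6 lower (median -0.37), and they summed to 373 to 532 CPM in fluctuating and 484 to 719 CPM in constant males. Their part in the protease values was not tested.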

How the data were processed

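Gene counts of 80 libraries were used as deposited. Per the labels' protocols the libraries were made from whole animals with oligo(dT) selection. FastQC, Trimmomatic, HISAT2 and StringTie and the BDGP6 genome are named per the submitters' processing notes, without versions, roles or order. Per gene the deposited table holds estimated counts, all of them whole numbers, and small values pile up at multiples of 4 (36.8% of 183786 low values, where 25% would be even), so 1 fragment is taken as about 4 counts and counting error is larger than the library totals imply (87.1 to 130.7 in units of 1000000 counts). Strand use and the handling of reads that match several genes are not stated by the labels.

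Genes were filtered with edgeR's filterByExpr (minimum count 10), scaled with TMM and tested with edgeR 4.0.16 (R 4.3.3) by the quasi-likelihood test with Benjamini-Hochberg adjustment over 14634 genes in larvae, 13471 in females, 15847 in males and 16306 in the fit of all libraries, which served the comparisons between stages and sexes. One coefficient was fitted per group of 4, and contrasts of adults average over 6 and 12 cycles. TMM factors ran from 0.75 to 1.27 in the fit of all libraries, so a fold change there can differ from the ratio of the CPM levels. No 2 of the 120 library pairs within groups were identical. Replicates are biological per the design text. The test was checked on simulated data. DESeq2 1.42.0, other scalings, filters and library sets were alternatives. Genes were named by a rule: up to 5 called members per direction and comparison with the largest change, the 3 highest per kilobase in each stage, up to 3 called genes per other list, and the 5 closest genes by correlation. The members and lists were chosen with earlier results of these data known. Of 166 listed symbols 4 were not matched.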

Additional observations from a re-analysis of the deposited data

Results flagged for a closer look

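Of 180 groups of 4 libraries examined for the family sums and selected members, 9 held a library far from the other 3 by Dixon's criterion, and chance gives about 1 in 20 groups. The Jonah sum was 2454 CPM in replicate 3 of the fluctuating females at the low point after 6 cycles, below 3304 to 3326 in the others. In fluctuating larvae, replicate 1 held 2.67 CPM of lambdaTry at the high point (others 0.0634 to 0.103) and 517 CPM of Jon66Cii at the low point (others 233 to 263). In constant males after 6 cycles, Jon66Ci was 0.459 CPM in replicate 4 at the high point (others 1.7 to 1.9). Larval cuticle genes in this group summed to 16.5, 16.1, 13.5 and 6.13 CPM in replicates 1 to 4. The glue gene Sgs3 stood at 4.23, 4.1, 3.55 and 2.01 CPM. In the matching females the values were 5.25 to 8.59 and 1.41 to 3.29 CPM. The part of larval transcripts in the protease values of these groups was not tested. In replicate 2 of the constant males at the low point after 6 cycles, Jon66Ci was 4.64 (others 0.214 to 0.356), Jon66Cii 1.67 (others 0.0856 to 0.188) and Jon99Cii 1067 CPM (others 442 to 535). deltaTry was 15.1 CPM in replicate 6 of the constant females at the low point after 12 cycles (others 6.52 to 7.2) and 25 in replicate 2 of the constant males at the high point after 6 cycles (others 11.2 to 12.1).

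Differences between treatment effects were called in 30 cases by edgeR's quasi-likelihood test. At the high against the low point, kappaTry differed by -2.83 in larvae. In females the differences were Jon66Cii 2.49, Jon65Aii 1.83, Jon25Bii 1.41, Jon65Aiv 1.13, thetaTry 1.07, Jon65Aiii 1.01, Jon99Ci 0.95, Jon99Cii 0.77, Jon99Ciii 0.75 and etaTry 0.51. In males they were Jon65Aiv 1.17, Jon65Aiii 1.02, Ser8 0.86 and Ser6 0.44. At 12 against 6 cycles in females they were deltaTry 0.90, Jon99Ciii 0.82, Jon25Biii 0.72, gammaTry 0.72, Jon44E 0.68, Jon99Cii 0.64, betaTry 0.64, Jon74E 0.60, kappaTry 0.56, iotaTry 0.53, zetaTry 0.51, yip7 0.50, lambdaTry 0.45 and alphaTry 0.32. Between males and females at the low point Ser8 differed by -1.28.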

How the results depend on the processing

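Of 185 calls of members, 114 held in each alternative run and 155 with each library left out. Calls lost were 6 of 182 with DESeq2, 9 of 185 with DESeq2 size factors, 9 of 185 with library totals, 7 of 185 with no filter and 0 of 185 with counts divided by 4. In 3 cases the sign turned: kappaTry in females at the low point at 12 cycles alone (0.02), and Jon99Ci (-0.18) and zetaTry (-0.19) in larvae against males with library totals; the cause was not tested. Of 175 counts of called members 149 stayed within 1.5 times. In larvae at the high point the count was 2 as reported, 4 with library totals and 1 with no filter. It was 4 with the replicate block and 0 with the compared libraries alone. Of all genes 10.1%, 3.19%, 7.09% and 0.157% were called in these 4 runs, against 4.37% as reported. At the low point (0) the count was 1 with the compared libraries alone and 1 with DESeq2 (1.78% and 3.59% of all genes). Between points (0) the count was 4 with library totals, 8 with the replicate block, 10 with the compared libraries alone and 13 with DESeq2. There 4.66%, 5.23%, 5.39% and 10.5% of all genes were called, against 0.417% as reported. For the difference of effects (1) the count was 0 with no filter and 3 with DESeq2 (1.1% and 7.62% of all genes). With 6 cycles alone the counts in females were 5 at the high point, 1 between points and 4 for the difference of effects, where 30.5%, 14.8% and 6.47% of all genes were called. In males they were 0 at the high point, 3 at the low point, 0 between points and 0 for the difference of effects (17.4%, 29.8%, 5.02% and 13.8% of all genes). With 12 cycles alone they were 11, 3 (low point), 2 and 1 in females (12%, 13.4%, 4.48% and 9.97%), and in males 1 at the low point and 0 for the difference of effects (9.3% and 14.6%). DESeq2 gave 16 for the female difference of effects, where it called 22.5% of all genes.

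With each library left out the counts ran over 0 to 6, 0 to 1, 0 to 9 and 0 to 3 in larvae (high point, low point, between points, difference of effects), 15 to 20, 6 to 10, 4 to 7 and 10 to 16 in females and 5 to 12, 3 to 6, 1 to 1 and 2 to 8 in males. They ran from 8 to 15 and 16 to 23 for 12 against 6 cycles in females and males, 11 to 20 and 0 to 0 for the difference of effects between cycles, 31 to 31 and 28 to 30 for larvae against females and males, 20 to 24 for males against females, and 0 to 0 and 0 to 1 for the effects between sexes. These ranges, and the earlier counts with a library left out, are given without the share of all genes called in each run. Counts of members by unadjusted p also stand without such a share.

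Same-numbered libraries deviated together only in part, in larvae (correlations of -0.36 to 0.76, 8 of 16 over 0.1), females (-0.45 to 0.20, 6 of 32) and males (-0.20 to 0.22, 13 of 32). Since not every correlation passed 0.1, the numbers are not taken as pairs. The replicate block gave 4 and 0 calls in larvae, 17 and 7 in females and 12 and 6 in males at the high and low points. Of all genes it called 7.09% and 0.827% in larvae, 28.1% and 20.8% in females and 31.9% and 28.9% in males. Between points in larvae it gave 8, where the reported fit gave 0, and for males against females 22. There it called 5.23% and 94.4% of all genes. The larval counts thus depend on whether the numbers are taken as pairs. The planned pooling of near-identical proteins was not run, for want of sequences; a pooling of named near copies, chosen after seeing the data, lost 3 of 185 calls. Depth limits lambdaTry, Ser8 and Ser12 in larvae, which lie near 1 CPM or lower.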
